A study of Mus musculus with 48 samples.

Results

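The genes described here are 31 members of cholesterol metabolism among 54532 genes in the count table, chosen by name: 20 enzymes of cholesterol synthesis and 11 genes of cholesterol uptake, transport inside the cell, efflux and storage. All 31 were found once in the table and all passed the filter on low counts. They were measured by bulk poly-A RNA sequencing of inguinal subcutaneous white fat (iWAT, called sWAT by the study) from C57BL/6 mice (C57BL/6J in the study's methods) aged 8 months, in 48 libraries. Of these, 24 came from mice fed ad-lib and 24 from TAN mice, which ate in 2 windows of the dark phase, and each diet was sampled at 6 labelled times of day (8 AM, 12 PM, 4 PM, 8 PM, 12 AM and 4 AM) with 4 libraries each. All groups share strain, age and depot, and the labels name no altered gene.

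Cholesterol is built from acetyl-CoA by a chain of enzymes in the cytosol and endoplasmic reticulum. The early steps give mevalonate and then the isoprenoid farnesyl diphosphate, and the later steps join farnesyl units into squalene, close the rings to lanosterol and trim lanosterol to cholesterol. When membranes lack sterol, the factor SREBP2 switches on most of these enzymes together, whereas sterol excess acts through the LXR receptors on efflux and storage genes. Fat cells keep much of the body's free cholesterol in the membrane of the lipid droplet and take a good part of it from lipoproteins.

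Promoter sequence is shown because most synthesis genes share a box that their selection did not use. A link between this box and the changes below was not tested. RefSeq promoters (build GRCm38.p6, from 250 bases before to 50 after each start) were matched for 17 of the 20 synthesis genes and 7 of the 11 other members, on both strands. The NF-Y box, CCAAT, was in the promoter of 16 of those 17 synthesis genes (94.1%) and of 5 of the 7 other members (71.4%), against 42.2% of the 12935 tested genes with a promoter. Counted by promoter, since some genes have several, the synthesis share was 80% against 37.2%. Genes with a box included some called for the mean effect below (Mvd with 2, Nsdhl with 4) and some not called (Hmgcs1 with 4, Lbr with 2). Acat2, called for that mean, had 0. A sterol regulatory element spelled TCACNCCAC was in 1 of the 17 (5.88%), against 1.44% of the tested genes, and in none of the 7. The E-box CACGTG was in 3 of the 17 (17.6%) and 1 of the 7 (14.3%), against 10.8%. AGGTCA repeated after 4 bases, the spacing read by LXR, was in none of the 24 members' promoters and in 1 tested gene. These are letter matches in a short window and do not show binding. The following stretches hold the sterol element of Hmgcs1 (chr13:119690205-119690231, plus strand, 137 bases before the start), and the NF-Y boxes nearest before the start in Mvd (chr8:122443434-122443460, minus strand, 27 bases before), Cyp51 (chr5:4104711-4104737, minus strand, 29 bases before), Dhcr7 (chr7:143830154-143830180, plus strand, 49 bases before) and Nsdhl (chrX:72918490-72918516, plus strand, 20 bases before). Each is printed 5′ to 3′ on the gene's strand with the match in capitals, and ATTGG is the same box read from the opposite strand. The Dhcr7 box printed is from the promoter at chr7:143829964-143830263. Its other promoters, chr7:143822917-143823216 and chr7:143823149-143823448, held 0 NF-Y boxes.
Hmgcs1: gtcaccgtcTCACCCCACttcccaggt
Mvd: cggccagcgggCCAATcatatggcagc
Cyp51: gctgtccgccaCCAATctggtcctgag
Dhcr7: atccacttccgATTGGtcgtctgtgac
Nsdhl: agactagcctcATTGGgcaaaatcatg

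Total counts per library were 15636378 to 29913310. Fat cell markers were abundant, 10 adipocyte genes (Adipoq, Plin1, Fabp4 and others) summing to 9125 to 69720 CPM (counts scaled to library size by TMM) and none at 0 in any library. RNA of lymphocyte markers had a wider range, the sum of 10 B and T cell markers running from 10.05 to 3222 CPM, and 13 libraries held under 500 CPM (5 ad-lib, 8 TAN). All 4 TAN libraries of 4 PM and 3 of the 4 TAN libraries of 12 AM were among them. In bulk tissue, fewer cells of a type and less RNA per cell cannot be told apart. The study elsewhere names these libraries 12 h apart from their GEO labels (48 of 48 libraries matched that way over 979 genes, with the same diet and number), so labelled times are used throughout, and a comparison of the diets at 1 time holds the same mice under either naming. By these labels the clock gene Arntl was highest at 8 AM in both diets (32.3 CPM ad-lib, 46.0 CPM TAN) and the clock output gene Dbp at 4 PM (102 and 154 CPM).

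Averaged over the 6 times, 12 of the 31 members were higher in TAN mice and none was lower at an adjusted p under 0.05 (edgeR's quasi-likelihood test, Benjamini-Hochberg adjustment over 19977 genes). All 12 were synthesis enzymes, out of 20, whereas none of the 11 uptake, transport, efflux and storage genes was called. Over all genes tested, 2.68% were called higher and 2.74% lower. The median log2 fold change was 0.51 for the synthesis genes, -0.10 for the other 11 members and -0.08 for all genes. The count of 12 was unchanged when the lymphocyte markers or the adipocyte markers entered the fit as a covariate, with the same 12 genes in each. Those fits called 5.13% and 7.21% of all genes. The count fell to 7 when the libraries numbered 4 were left out, where 2.09% of all genes were called.

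The largest of these mean effects was that of Mvd, mevalonate diphosphate decarboxylase, which rose by 1.004 on the log2 scale (SE 0.126, edgeR adjusted p = 8.29e-07). Nsdhl, which removes methyl groups from the sterol ring, rose by 0.89 (SE 0.148, edgeR adjusted p = 0.000191), and Acat2, the thiolase that makes acetoacetyl-CoA, by 0.84 (SE 0.139, edgeR adjusted p = 0.000167). Both parts of the pathway were represented. Of the 8 genes up to farnesyl and geranylgeranyl diphosphate, Acat2, Mvk, Pmvk, Mvd and Idi1 rose, and of the 12 genes from squalene onward Fdft1, Sqle, Lss, Cyp51, Tm7sf2, Nsdhl and Dhcr7 rose, the 9 genes beside the 3 named above having log2 fold changes of 0.45 to 0.76. Hmgcs1, HMG-CoA synthase, stood apart from its neighbours with a mean effect of -0.04 (edgeR adjusted p = 0.926). Ggps1, on the branch to protein prenylation, had -0.06, and Fdps, farnesyl diphosphate synthase, had -0.17 at a level of about 1 CPM (group means 0.57 to 1.56 CPM). Lbr, a sterol reductase that is also a protein of the nuclear envelope, had -0.36 (edgeR adjusted p = 0.139), and Msmo1, Hsd17b7, Ebp and Sc5d had 0.15 to 0.48 with none passing the threshold.

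**Figure D1:**
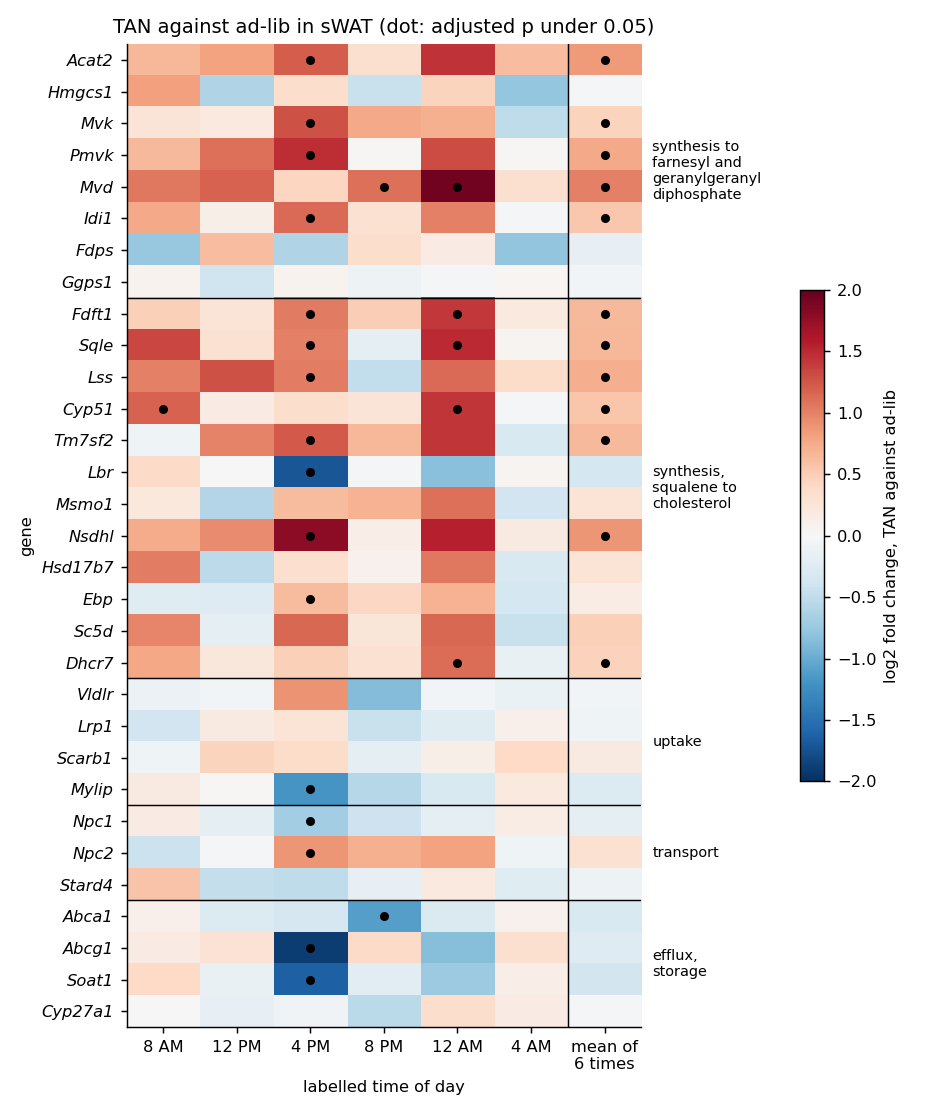
Log2 fold change of TAN against ad-lib for the 31 genes (rows, grouped by role) at each labelled time and averaged over the 6 times (columns), with a black dot where edgeR's adjusted p was under 0.05. Synthesis genes are mostly red at 8 AM, 4 PM and 12 AM, and the column of means has 12 dots, all in the synthesis rows.

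By time of day, the synthesis genes stood highest against ad-lib at the 12 AM label. There 5 members were called higher, Mvd, Cyp51, Dhcr7, Sqle and Fdft1, all of them synthesis enzymes, and none was called lower. Only 0.125% of all genes tested were called higher at 12 AM and 0.0250% lower. The median log2 fold change at 12 AM was 1.12 for the 20 synthesis genes, -0.18 for the other 11 members and -0.14 for all genes.

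Mvd (ENSMUSG00000006517, chr8:122433601-122443422, minus strand, build GRCm38) measured 26.3, 47.95, 53.4 and 35.6 CPM in the 4 TAN libraries of 12 AM and 9.88, 8.81, 14.3 and 9.62 CPM in the 4 ad-lib libraries. Every TAN library was above every ad-lib library, and the log2 fold change was 1.94 (SE 0.314, edgeR adjusted p = 0.00161). Cyp51 (ENSMUSG00000001467, chr5:4081145-4104746, minus strand), the demethylase that acts on lanosterol, measured 92.9, 233, 181 and 154 CPM in TAN and 65.2, 76.8, 54.1 and 49.3 CPM in ad-lib. Its groups did not overlap either, with TAN replicate 1 lowest of the TAN libraries, and its log2 fold change was 1.43 (SE 0.228, edgeR adjusted p = 0.00161). Dhcr7 (ENSMUSG00000058454, chr7:143823145-143848410, plus strand), a reductase of the last steps, measured 52.6, 84.3, 69.0 and 62.6 CPM in TAN and 25.4, 37.5, 34.1 and 27.3 CPM in ad-lib. The lowest TAN library was above the highest ad-lib library, and the log2 fold change was 1.11 (SE 0.198, edgeR adjusted p = 0.00375).

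Sqle, squalene epoxidase, measured 47.7, 126.5, 76.1 and 78.5 CPM in TAN and 31.2, 33.5, 23.9 and 27.8 CPM in ad-lib at 12 AM. The groups did not overlap (log2 fold change 1.497, SE 0.306, edgeR adjusted p = 0.0225), but the call was lost without ad-lib replicate 1, 3 or 4 or TAN replicate 2 or 4. Fdft1, squalene synthase, had group means of 334 ± 98.8 CPM in TAN and 126 ± 25.1 CPM in ad-lib (SD, n = 4), and its log2 fold change of 1.41 (edgeR adjusted p = 0.0309) kept the call in 2 of 8 fits that left out 1 library. Its gene overlaps 774 bases of Ctsb on the other strand, whose counts were far higher (median 44397 against 2229 per library) and whose own log2 fold change at 12 AM was 0.69 (edgeR adjusted p = 0.208), and since the strand of the counting is not given in the sources used here, reads of the 2 genes cannot be told apart in the shared part. Mvd, Cyp51 and Dhcr7 kept the call in all 8 such fits.

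At 12 AM, leaving out TAN replicate 1 raised the count from 5 to 16 members (15 higher, 1 lower), where 2.81% of all genes were then called higher and 1.41% lower. Leaving out ad-lib replicate 3 or 4 or TAN replicate 2 or 4 lowered the count to 3, where 0.0387% to 0.0629% of all genes were called. Cell markers and some shares of counts moved with diet at this time, and no direct measure of RNA quality was used here. Mitochondrial genes took 6.38% to 11.9% of counts in TAN and 4.27% to 5.75% in ad-lib. Without those genes in the fit the count was again 5, where 0.151% of all genes were called. Loci annotated as TEC, predicted transcripts that await experimental support, took 0.034% to 0.0665% of counts in TAN and 0.0656% to 0.106% in ad-lib. With this TEC share as a covariate 3 members were called, where that fit called 0.0801% of all genes. The lymphocyte markers summed to 13.5, 17.2 and 442 CPM in TAN replicates 2, 4 and 3 but to 1686 CPM in TAN replicate 1, against 1119 to 1420 CPM in ad-lib, and the adipocyte markers to 33710 to 67950 CPM in TAN against 26380 to 35580 CPM in ad-lib. With the lymphocyte markers as a covariate Mvd, Cyp51 and Dhcr7 kept their calls (log2 fold changes 1.94, 1.23 and 0.99) and Sqle and Fdft1 did not (edgeR adjusted p = 0.113 and 0.138). TAN replicate 1, the TAN library with as much lymphocyte RNA as the ad-lib libraries, had the lowest summary of the 20 synthesis genes in its group: their mean log2 CPM, less each gene's mean over the 48 libraries, was 0.57 there, 1.04 to 1.47 in the other TAN libraries and -0.10 to 0.44 in the ad-lib libraries. When the 8 libraries of 12 AM were fitted on their own by edgeR, no member and no other gene was called, with 18 members at an unadjusted p under 0.05.

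**Figure D2:**
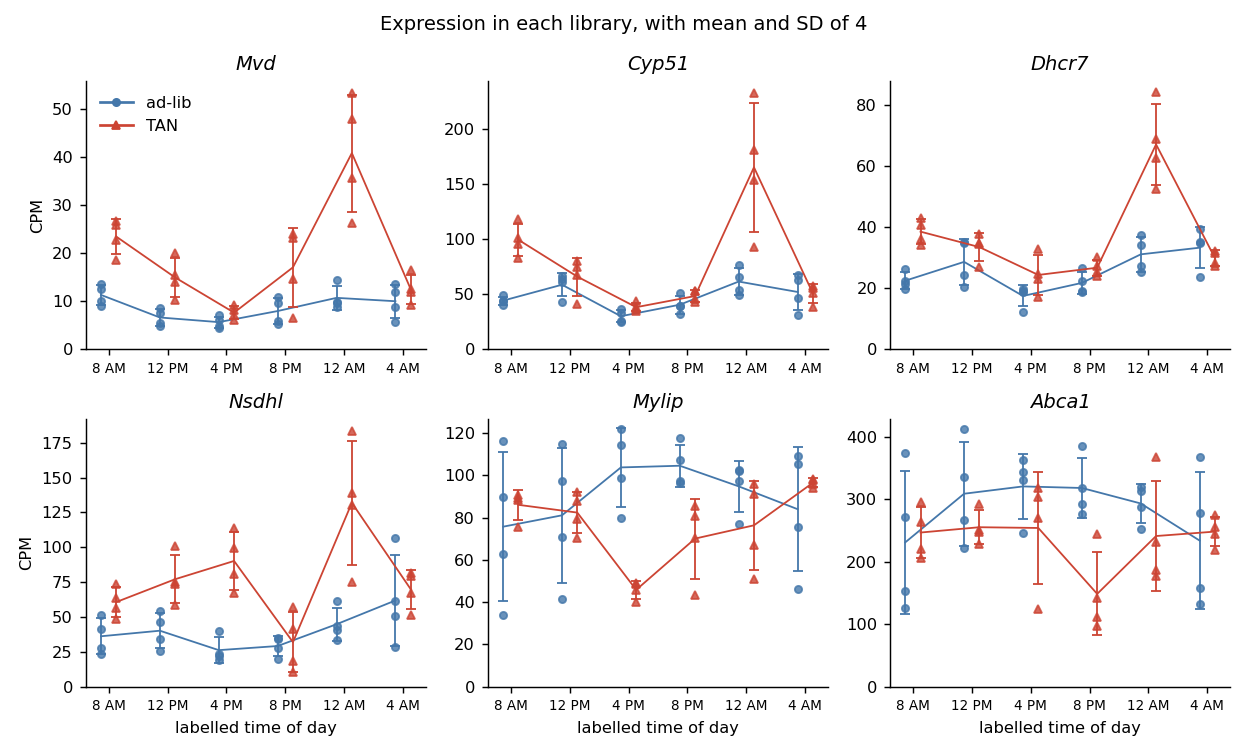
CPM of 6 members in every library against labelled time, with ad-lib as blue circles, TAN as red triangles, lines through group means and bars of 1 SD (n = 4). Mvd, Cyp51 and Dhcr7 stand apart at 12 AM, Nsdhl and Mylip at 4 PM in opposite directions, and Abca1 at 8 PM.

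At 8 AM, 1 member was called higher, Cyp51, and none lower, where 0.0100% of all genes were called higher and 0.00501% lower. Cyp51 measured 101, 118, 82.9 and 95.2 CPM in TAN and 48.9, 43.3, 40.1 and 43.8 CPM in ad-lib. The groups lay far apart (log2 fold change 1.17, SE 0.227, edgeR adjusted p = 0.0425), yet the call was lost in all 8 fits that left out 1 library, with log2 fold changes of 1.06 to 1.23. Other synthesis genes leaned the same way without being called, with Sqle at 1.33, Mvd at 1.05, Hsd17b7 at 1.02 and Lss at 1.01, and the median of the 20 was 0.70 against 0.10 for the other members and 0.01 for all genes. Of the 20, 10 had an unadjusted p under 0.05, as did 6.58% of all genes. Cell makeup at 8 AM differed from that of 12 AM: the TAN libraries held 1183 to 1821 CPM of lymphocyte markers and the ad-lib libraries 35.5 to 2500 CPM, and the adipocyte sums were 23140 to 29410 CPM in TAN and 18520 to 64530 CPM in ad-lib. With both marker lists as covariates 8 members were called, all higher and all synthesis genes, where that fit called 0.370% of all genes higher and 0.0751% lower. This pairing of covariates, also used for later times below, was chosen after seeing the data. By limma voom, and in a fit of the 8 libraries of 8 AM on their own, no gene was called at 8 AM.

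No member was called at 12 PM, where 0.0851% of all genes were called higher and 0.00501% lower. An unadjusted p under 0.05 by edgeR was reached by 8 members and by 7.37% of all genes. DESeq2 called no member, where it called 0.295% of all genes. Lss, lanosterol synthase, had the highest log2 fold change at 1.27 (edgeR adjusted p = 0.229), followed by Mvd at 1.18 (edgeR adjusted p = 0.208). With both marker covariates, the pairing chosen after seeing the data, 6 members were called, all higher and all synthesis genes. That fit called 0.541% of all genes higher and 0.180% lower.

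The most members were called at 4 PM, 11 higher and 5 lower, but this was also where 6.54% of all genes were called higher and 8.77% lower. Of the 11, 10 were synthesis enzymes and the last was Npc2, a carrier that brings cholesterol out of lysosomes. The 5 lower members were Lbr, the receptor-degrading ligase Mylip, the lysosomal exporter Npc1, the efflux pump Abcg1 and Soat1, the enzyme that esterifies cholesterol for storage. The median log2 fold change was 0.82 for synthesis genes, -0.34 for the other 11 and -0.09 for all genes.

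Nsdhl measured 99.2, 67.0, 80.6 and 114 CPM in TAN and 40.1, 23.7, 22.3 and 18.8 CPM in ad-lib at 4 PM. Its groups did not overlap (log2 fold change 1.78, SE 0.370, edgeR adjusted p = 0.00705). Pmvk, phosphomevalonate kinase, measured 70.1, 64.3, 54.5 and 81.3 CPM in TAN and 31.5, 24.4, 21.0 and 20.4 CPM in ad-lib, a log2 fold change of 1.47 (SE 0.341, edgeR adjusted p = 0.00933). Its TAN libraries all lay above the ad-lib ones, as did those of the next 3 genes. Mvk, the kinase before it, measured 32.3, 32.3, 56.5 and 24.9 CPM in TAN and 14.1, 17.6, 14.6 and 14.2 CPM in ad-lib (log2 fold change 1.27, edgeR adjusted p = 0.0154, lost without ad-lib replicate 3 or TAN replicate 3).

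Idi1, the isomerase of the isoprene unit, measured 56.9, 34.0, 55.2 and 61.6 CPM in TAN and 30.2, 23.3, 21.2 and 20.4 CPM in ad-lib (log2 fold change 1.13, edgeR adjusted p = 0.0162, lost without ad-lib replicate 3 or TAN replicate 1). Acat2 measured 163, 138.5, 137 and 205 CPM in TAN and 76.3, 81.1, 55.3 and 64.5 CPM in ad-lib (log2 fold change 1.22, edgeR adjusted p = 0.0199, lost without ad-lib replicate 3 or 4 or TAN replicate 1 or 4). Acat2 has a close copy, Acat3, with a median of 43.5 counts per library against 2751.5, and reads shared by the copies could have gone to either. Sqle measured 29.0, 23.9, 19.3 and 37.0 CPM in TAN and 17.2, 13.7, 12.7 and 11.1 CPM in ad-lib (log2 fold change 1.0, edgeR adjusted p = 0.0271, lost without ad-lib replicate 3 or 4 or TAN replicate 1 or 4). The remaining synthesis genes called higher, Fdft1, Lss, Tm7sf2 and Ebp, had log2 fold changes of 0.63 to 1.22. Ebp lost the call in all 8 fits that left out 1 library. Ctsb, the abundant neighbour that overlaps Fdft1, was itself called higher at 4 PM, at 0.84 (edgeR adjusted p = 0.0435). The part of Ctsb reads in the Fdft1 value was not tested. Npc2 measured 1116, 797, 1052 and 635 CPM in TAN and 560, 500.5, 464 and 427.5 CPM in ad-lib (log2 fold change 0.88, edgeR adjusted p = 0.0285, lost without ad-lib replicate 3 or 4 or TAN replicate 1 or 3).

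In the other direction, Lbr measured 26.3, 29.4, 39.1 and 26.2 CPM in TAN and 101.5, 81.7, 118 and 96.7 CPM in ad-lib at 4 PM. The lowest ad-lib library held more than the highest TAN library (log2 fold change -1.72, SE 0.368, edgeR adjusted p = 0.00776). Mylip, which marks lipoprotein receptors for degradation, measured 45.6, 39.9, 48.7 and 49.0 CPM in TAN and 98.5, 79.9, 114 and 122 CPM in ad-lib. Again there was no overlap (log2 fold change -1.18, SE 0.270, edgeR adjusted p = 0.0093). Abcg1 had -1.89, Soat1 -1.63 and Npc1 -0.69 on the log2 scale, and these 3 kept the call in 4, 1 and 1 of 8 fits that left out 1 library.

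At 4 PM diet and cell makeup cannot be told apart in these libraries. The lymphocyte markers summed to 10.05 to 406 CPM in TAN and 1144 to 1942 CPM in ad-lib, and the adipocyte markers to 40640 to 68350 CPM in TAN and 18190 to 26550 CPM in ad-lib, with no overlap in either. With the lymphocyte markers, the adipocyte markers or both as covariates no member was called at 4 PM. These fits called 0%, 0.200% and 0.0651% of all genes, and the median log2 fold change of the synthesis genes was 0.35, 0.41 and 0.32. TEC loci took 0.0327% to 0.0847% of counts in TAN and 0.0882% to 0.11% in ad-lib at 4 PM. With this TEC share as a covariate no member was called either, where that fit called 0.275% of all genes. Single libraries also decided much of the count, which was 4 without ad-lib replicate 3 (1.98% of all genes called in either direction), 6 without ad-lib replicate 4 (6.40%) or TAN replicate 1 (3.13%) and 9 without TAN replicate 4 (9.52%).

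**Figure D3:**
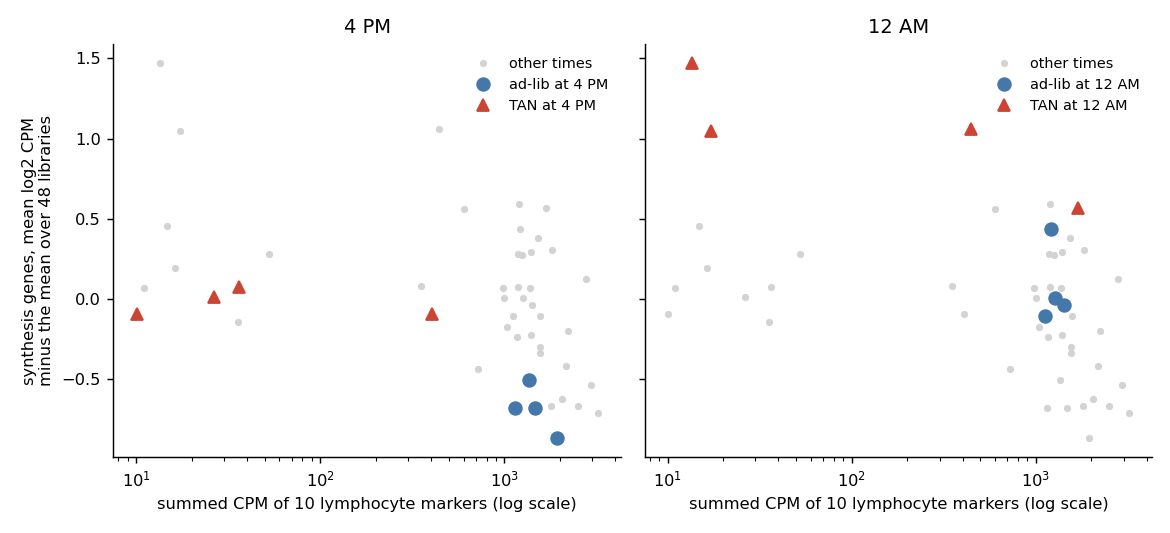
Summary of the 20 synthesis genes in each library (mean log2 CPM less each gene's mean over the 48 libraries) against the summed CPM of 10 lymphocyte markers on a log axis, with the libraries of 4 PM (left) and 12 AM (right) in colour and all others in grey. At 4 PM the 2 diets lie apart on both axes, and at 12 AM 1 TAN library lies among the ad-lib libraries on the horizontal axis and above them on the vertical axis.

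At 8 PM, 1 member was called higher and 1 lower, where 3.76% of all genes were called higher and 7.91% lower. Mvd measured 23.1, 23.9, 6.49 and 14.6 CPM in TAN and 10.8, 9.69, 5.83 and 5.30 CPM in ad-lib. Here 3 of 4 TAN libraries were above every ad-lib library (log2 fold change 1.10, SE 0.308, edgeR adjusted p = 0.0197), and the call was lost without ad-lib replicate 3 or 4 or TAN replicate 1 or 2. Abca1, the pump that loads cholesterol onto apolipoprotein, was the one efflux gene called at this time. It measured 111, 96.5, 143 and 244 CPM in TAN and 276, 319, 293 and 385 CPM in ad-lib. All TAN libraries lay below the ad-lib ones (log2 fold change -1.10, SE 0.310, edgeR adjusted p = 0.0206), and the call was lost without ad-lib replicate 4 or TAN replicate 1 or 2. The TEC share was 0.0294% to 0.0394% in TAN and 0.0807% to 0.104% in ad-lib at 8 PM. With it as a covariate no member was called there, where that fit called 0.320% of all genes. Without TAN replicate 4 the count at 8 PM was 4, where 4.37% of all genes were called higher and 10.3% lower. The lymphocyte markers summed to 52.5 to 3222 CPM in TAN and 721 to 2167 CPM in ad-lib, the adipocyte markers to 9125 to 69720 and 13660 to 39290 CPM, and with both as covariates 11 members were called, 3 higher and 8 lower, where that fit called 7.88% of all genes higher and 20.5% lower. Markers of other cells also moved with diet at 8 PM: the 5 endothelial markers summed to 149 to 282 CPM in TAN and 350 to 518 CPM in ad-lib, and the 8 macrophage markers had a mean log2 CPM of 5.01 to 6.09 in TAN and 6.23 to 6.70 in ad-lib, although their sums overlapped (541 to 2704 and 1245 to 1860 CPM). The part of the endothelial markers in the result was not tested. With the macrophage markers as a covariate 6 members were called, where that fit called 8.36% of all genes higher and 14.4% lower.

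At 4 AM no member was called in either direction, with 0% of all genes called higher and 0% lower. An unadjusted p under 0.05 was reached by 1 member and by 2.64% of all genes. DESeq2 called no member, where it called 0.0200% of all genes. The median log2 fold change was -0.04 for the synthesis genes, 0.13 for the other 11 and 0.00 for all genes.

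**Figure D4:**
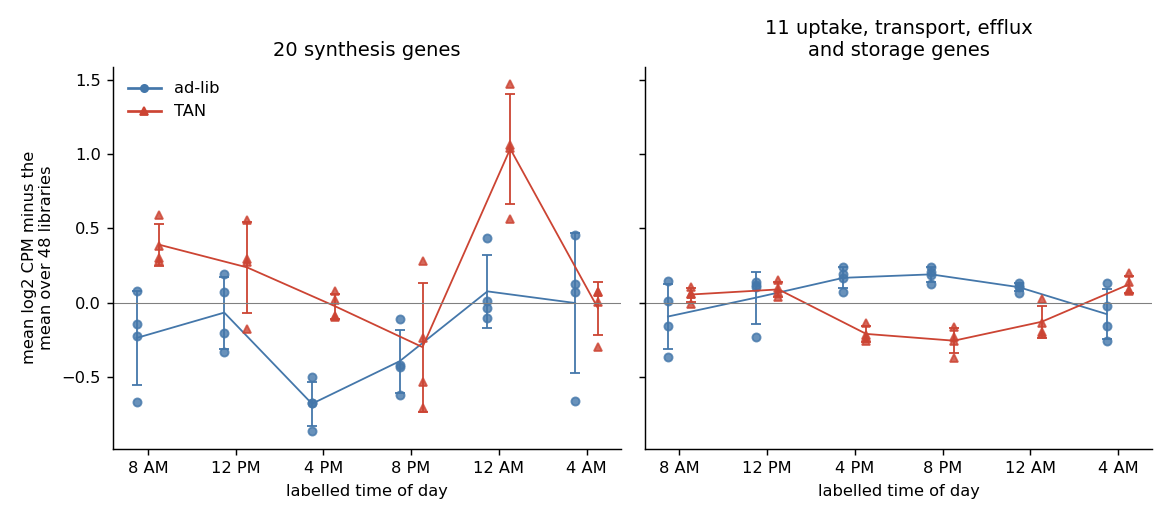
Mean log2 CPM of the 20 synthesis genes (left) and the 11 uptake, transport, efflux and storage genes (right) in each library, less each gene's mean over the 48 libraries, against labelled time, with ad-lib as blue circles, TAN as red triangles, lines through group means and bars of 1 SD (n = 4). The TAN synthesis line is highest at 12 AM, with a mean of 1.04 against 0.08 in ad-lib, while the summary of the other members spans -0.37 to 0.24 over all libraries, with every TAN library below every ad-lib library at 4 PM, 8 PM and 12 AM.

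Over the day, the synthesis genes varied in TAN mice with a shared peak. The test of variation over the 6 times called 20 of 31 members in TAN, 16 of the 20 synthesis genes and 4 of the other 11, where 23.0% of all genes were called. In ad-lib it called none of the 31, where 0.0551% of all genes were called, although 16 members (14 of them synthesis genes) had an unadjusted p under 0.05, as did 6.67% of all genes, and DESeq2 called 3, where it called 0.546% of all genes. In TAN, 18 of the 20 synthesis genes had their highest mean at 12 AM, the others being Hmgcs1 at 8 AM and Lbr at 8 PM. In ad-lib the highest means were spread, 7 at 12 PM, 5 at 12 AM, 5 at 4 AM, 2 at 8 AM and 1 at 8 PM, while 17 of 20 had their lowest mean at 4 PM. The adipocyte markers summed to 18190 to 26550 CPM in those ad-lib libraries of 4 PM and to 13660 to 64530 CPM in ad-lib at the other times. In TAN they summed to 33710 to 67950 CPM at 12 AM and to 9125 to 69720 CPM at the other times. The share of all genes with a peak or trough at these times was not counted, and the part of cell makeup in the shared peak was not tested.

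The peak over trough, the ratio of the highest to the lowest group mean, had a median of 3.37-fold over the synthesis genes in TAN and 2.06-fold in ad-lib, and of 1.84-fold and 1.52-fold over the other 11 members. Mvd went from 7.58 CPM at 4 PM to 40.8 CPM at 12 AM in TAN, 5.38-fold (edgeR adjusted p = 2.46e-05), and from 5.61 CPM at 4 PM to 11.3 CPM at 8 AM in ad-lib, 2.01-fold (edgeR adjusted p = 0.564). Cyp51 went from 38.0 CPM at 4 PM to 165 CPM at 12 AM in TAN, 4.34-fold (edgeR adjusted p = 6.48e-08), and had a 2.06-fold range in ad-lib with the same peak and trough (edgeR adjusted p = 0.157). Dhcr7 had the smallest ad-lib adjusted p of the members (0.0952 by edgeR, 1.91-fold) and went 2.76-fold in TAN (edgeR adjusted p = 1.35e-05). Without the libraries numbered 2, the TAN count fell from 20 to 6 members, all synthesis genes, where 1.18% of all genes were called. Without those numbered 3 it fell to 13, where 6.58% of all genes were called.

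**Figure D5:**
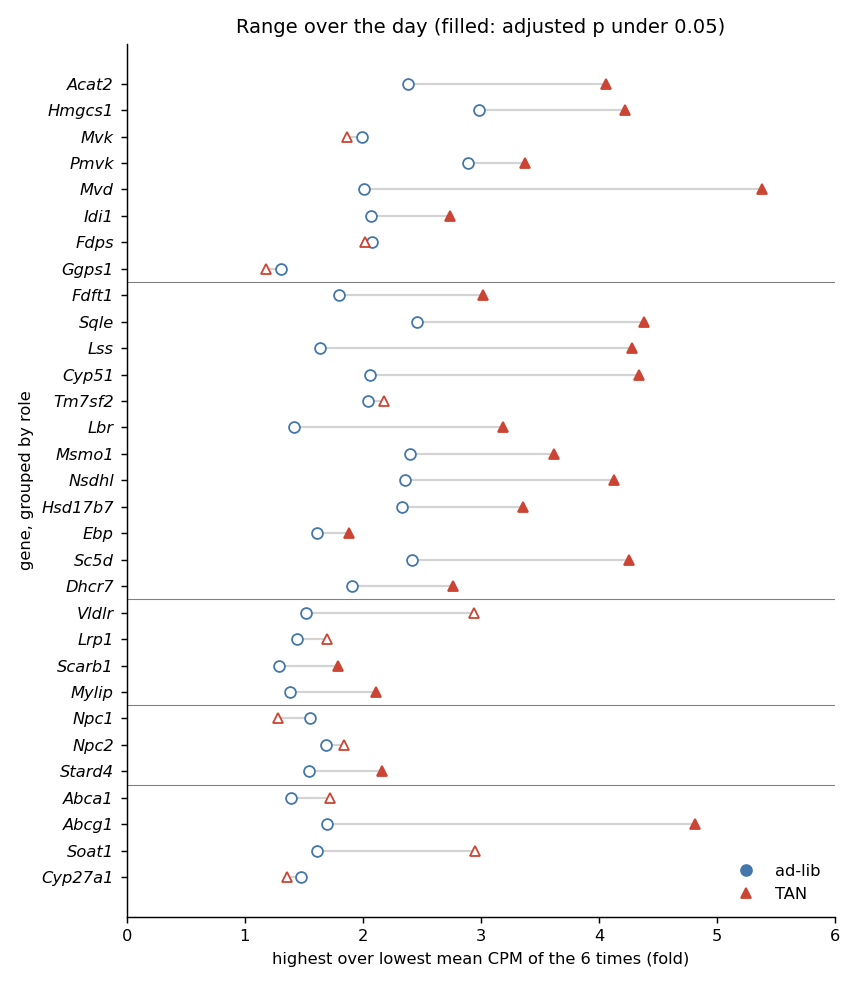
Ratio of the highest to the lowest mean CPM over the 6 labelled times for each gene, with ad-lib as blue circles and TAN as red triangles, filled where variation over time had an adjusted p under 0.05 by edgeR. Filled symbols are TAN only, and the widest range is that of Mvd in TAN at 5.38-fold.

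Whether the TAN effect itself differed between times was tested as an interaction of diet and time. It was called for 9 of 31 members, where 8.98% of all genes were called. Of these, 7 were synthesis genes, all from squalene onward (Cyp51, Sqle, Dhcr7, Msmo1, Ebp, Lbr and Hsd17b7), with edgeR adjusted p of 0.0125 to 0.0407, and 2 were the transport genes Npc2 and Stard4 (edgeR adjusted p = 0.0441 and 0.0497). Cyp51 had the smallest adjusted p, its log2 fold change being 1.17 at 8 AM, 0.17 at 12 PM, 0.35 at 4 PM, 0.26 at 8 PM, 1.43 at 12 AM and -0.04 at 4 AM. Mvd was not called (edgeR adjusted p = 0.0657), with log2 fold changes above 0 at all 6 times, from 0.32 at 4 AM to 1.94 at 12 AM. These calls depended on which libraries were kept. Leaving out all libraries of 1 replicate number left 3, 1, 0 and 0 members for numbers 1 to 4. Those fits called 0.964%, 4.85%, 0.0101% and 1.16% of all genes. With the TEC share as a covariate no member was called, where that fit called 0.0100% of all genes.

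None of the 11 members outside synthesis was called for the mean over 6 times, where 9 had a log2 fold change below 0 and 39.3% of all genes were above 0. Below 0 were also 9 of 11 at 8 PM, and all 4 efflux and storage genes were below 0 for the mean and at 4 PM. Their summary, computed as for the synthesis genes, was -0.26 to -0.14 in TAN and 0.07 to 0.24 in ad-lib at 4 PM, -0.37 to -0.16 and 0.13 to 0.24 at 8 PM, and -0.21 to 0.02 and 0.06 to 0.13 at 12 AM. At these 3 times every TAN library lay below every ad-lib library, and at the other 3 the diets overlapped, with the TAN mean the higher (0.06 against -0.09 at 8 AM, 0.09 against 0.03 at 12 PM and 0.12 against -0.08 at 4 AM). The median log2 fold change of all genes was also below 0 at those 3 times. The part of cell makeup and of the TEC share of counts, which moved with diet there, was not tested for this summary. Among the 4 uptake genes, the VLDL receptor Vldlr, the endocytic receptor Lrp1 and the HDL receptor Scarb1 were not called at any time, with log2 fold changes of -0.86 to 0.89, and Scarb1 varied over time in TAN from 68.1 CPM at 8 PM to 122 CPM at 12 PM (edgeR adjusted p = 0.0249). Stard4, a soluble sterol carrier, varied in TAN from 21.5 CPM at 4 PM to 46.5 CPM at 8 AM (edgeR adjusted p = 0.00416), and Abcg1 from 20.2 CPM at 4 PM to 97.0 CPM at 8 PM (edgeR adjusted p = 0.0335). Mylip varied in TAN from 45.8 CPM at 4 PM to 96.4 CPM at 4 AM (edgeR adjusted p = 0.0421). Cyp27a1, which oxidises the cholesterol side chain, stayed within 24.5 to 36.2 CPM in all 12 group means. Npc1 shares 305 bases with Rmc1 on the other strand, Cyp51 166 with Akap9 and Ggps1 257 with Arid4b. Tm7sf2 lies in the same stretch as Vps51, so part of these members' counts could belong to those neighbours. Mvd shares 9822 bases with Gm20388 and Lss 11268 with 4930483K19Rik, both on the other strand with a median of 0 counts. Whether reads of Mvd or Lss were lost there was not tested. Akap9 had a log2 fold change of -0.65 at 12 AM (edgeR adjusted p = 0.535), against 1.43 for Cyp51.

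Per length, Npc2 was the most abundant member, at 122 CPM per kilobase of transcript in ad-lib and 152 in TAN, averaged over the day. Acat2 (41.6 and 80.3), Hmgcs1 (50 and 50.5) and Sc5d (44.2 and 65.9 CPM per kilobase) led the synthesis genes, and Fdps was lowest at 0.24 and 0.22. Among the efflux genes Abca1 had 27.4 CPM per kilobase in ad-lib and 22.4 in TAN.

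Other cholesterol genes, listed by function beside the members, had few calls. Of 11 regulators of the pathway, including Srebf2, which encodes SREBP2, and its retention proteins, 1 was higher and 1 lower at 4 PM, near the shares of all genes (6.54% and 8.77%): Insig2, which holds the SREBP complex in the endoplasmic reticulum, at 0.95 (edgeR adjusted p = 0.0301), and Nfya, a subunit of the factor that reads the CCAAT box, at -1.42 (edgeR adjusted p = 0.0134). None of the 11 was called at the other times, and Insig1, itself a target of SREBP, was called for the mean over 6 times at 0.73 (edgeR adjusted p = 0.0478). Among other genes of sterol handling, the cholesteryl ester hydrolase Nceh1 was lower at 4 PM, at -2.01 (edgeR adjusted p = 0.0183), and none was called at other times. Of 11 genes of isoprenoid use, 3 were higher at 4 PM (6.54% of all genes), and at 8 PM 1 was higher and 1 lower (3.76% and 7.91% of all genes). The 2 with the smallest adjusted p were Pggt1b, the catalytic subunit of a protein prenyltransferase, at -0.88 at 8 PM (edgeR adjusted p = 0.0101) and Fnta, the subunit it pairs with, at 0.71 at 4 PM (edgeR adjusted p = 0.0194). No gene of these lists was called at 12 AM, where the median log2 fold changes were -0.17, -0.28 and 0.27.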

How the data were processed

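The authors deposited whole-number read counts per gene for 48 libraries and mean FPKM per group (per the file headers), and the FPKM values were not used. The submitters' processing notes name TopHat 1.3.3, DESeq2 1.20.0, limma and edgeR with builds mm9, mm10 and GRCm38, without roles. The study describes the tissue as whole sWAT, whereas the series text speaks of its stromal fraction. The deposited counts were fitted over 12 groups with edgeR 4.0.16 (TMM factors, filterByExpr with a minimum count of 10, robust quasi-likelihood test), leaving 19977 genes, and a gene was called at an adjusted p under 0.05 at any fold change. Fold changes are on the log2 scale and CPM are TMM-scaled. limma voom 3.58.1 and DESeq2 1.42.0 were alternatives, and the code was tested on simulated data. Members and lists were chosen with earlier results of these data known. Values per library are given for the 12 called members with the smallest adjusted p at any time, and of each further list the 2 smallest are named, except 1 gene that is not reported here. Replicates are separate libraries by the labels, so p-values measure only the spread between them, which may be technical. Alternatives were other filters, scalings and tools, cell marker covariates and a replicate block. Comparisons at 1 time were also refitted without each library, called leave-one-out below. The tests over all times were refitted without all libraries of 1 replicate number.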

Additional observations from a re-analysis of the deposited data

Results flagged for a closer look

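The TAN effect differed between times for 9 members by the interaction test of edgeR, with adjusted p of 0.0125 for Cyp51, 0.0225 for Sqle, 0.0265 for Dhcr7, 0.0296 for Msmo1, 0.0322 for Ebp, 0.0349 for Lbr, 0.0407 for Hsd17b7, 0.0441 for Npc2 and 0.0497 for Stard4. In 6 of the 7 synthesis genes among them the log2 fold change was highest at 12 AM, from 0.69 for Ebp to 1.497 for Sqle, and in Lbr it was lowest at 4 PM, at -1.72.

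Single libraries lay far from the other 3 of their group in 2 of 54 groups of 4 tested, and chance alone gives about 1 in 20. Mvk in ad-lib replicate 2 of 4 PM was high at 17.6 CPM, the other 3 being 14.1 to 14.6 CPM, and remained below the TAN libraries. The summary of the 11 uptake, transport, efflux and storage genes was low in ad-lib replicate 1 of 12 PM, at -0.23.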

How the results depend on the processing

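The cause of each shift below was not tested. Percentages in brackets are the shares of all genes called in the same fits. For the mean effect over 6 times (12 members), a required log2 fold change over 1 left 1. Fits without all libraries of 1 replicate number gave 7 to 11 (0.776% to 3.54%). Every other alternative was within 1.5 times the count of 12 (2.25% to 8.94%). Variation in TAN (20) gave 6 to 20 without 1 replicate number (1.18% to 21.0%). Variation in ad-lib (0) gave 3 with DESeq2 (0.546%), 1 with the lymphocyte (0.155%), 2 with the adipocyte (0.375%) and 4 with both covariates (0.531%). At 12 AM (5) DESeq2 gave 15 (2.84%), the lymphocyte covariate 3 (0.0451%), the TEC share 3 (0.0801%) and the separate fit 0 (0%). Leave-one-out fits gave 3 to 16 (0.0387% to 4.22%). Keeping libraries with at least 500 CPM of lymphocyte markers left TAN 1 library there, so no count is given. At 4 PM (16) no filter gave 10 (4.96%) and the macrophage covariate 9 (15%). The lymphocyte, adipocyte and both covariates gave 0 there (0%, 0.200% and 0.0651%), as did the TEC share (0.275%). Leave-one-out fits of 4 PM gave 4 to 14 (1.98% to 11.9%). At 8 PM (2) the lymphocyte covariate gave 4 (19.1%), the adipocyte 8 (24.4%), the macrophage 6 (22.7%) and both lymphocyte and adipocyte 11 (28.4%). Libraries of at least 500 CPM gave 8 (20.6%), the TEC share 0 (0.320%), the separate fit 0 (0.340%) and leave-one-out fits 0 to 4 (4.92% to 14.7%). At 8 AM (1) DESeq2 gave 2 (0.235%), the lymphocyte covariate 2 (0.0701%), the adipocyte 4 (0.290%) and both 8 (0.446%). The 8 AM count was 0 with no filter (0.00598%), limma voom (0%), libraries of at least 500 CPM (0%) and the separate fit (0%). It was also 0 in all leave-one-out fits (0% to 0.116%). At 12 PM (0) the lymphocyte covariate gave 4 (0.420%), the adipocyte 4 (0.646%), both 6 (0.721%) and libraries of at least 500 CPM 1 (0.148%). The interaction (9) gave 4 with no filter (2.80%), 15 with 10 counts in every library (20.4%) and 18 with DESeq2 (20%). It gave 14 with the adipocyte covariate (11.7%), 15 with both (14.7%) and 0 with the TEC share (0.0100%). Without 1 replicate number it gave 0 to 3 (0.0101% to 4.85%). Soat1 at 4 PM turned to 0.01 with the lymphocyte covariate and 0.049 with both. Covariates pairing both sums, the TEC share and the subset of libraries were chosen after seeing the data, and the subset could not be fitted at 4 PM, where no TAN library reached it.

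Equal replicate numbers did not pair the diets: residuals correlated above 0.1 in 7 of 24 same-numbered pairs (median 0.02, from -0.36 to 0.50). With a replicate block, 0 members were called at 8 AM (0.0100% of all genes), 2 at 8 PM (10.7%) and 5 at 12 AM (0.140%). That fit called 15 at 4 PM (14.1%), 12 for the mean (4.73%) and 6 for the interaction (6.84%). Fdps was low, at about 1 CPM and a median of 17.5 counts per library. The protein-coding gene Gm43738, on the same strand with a median of 0 counts, shares 7512 bases with it. Whether reads of Fdps were lost to that overlap was not tested, so its level here may not be its true level.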
